A study of Mus musculus with 24 samples.

Results

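Treadmill training in the young soleus was examined by comparing 3 soleus libraries of young exercised mice (SOL YE, replicates 1, 2 and 4) with 3 soleus libraries of young control mice (SOL YC, replicates 1, 2 and 3), which are 6 of the 24 libraries of the series. The libraries were chosen by their titles alone, and all 18795 genes of the deposited table were used. The study sequenced RNA from the soleus (SOL), a postural hindlimb muscle rich in slow fibers, and from the gastrocnemius (GAS), a mixed muscle rich in fast fibers, of male C57BL/6 mice. YE and YC mice were given as 9 weeks old, and old exercised (OE) and old control (OC) mice as 84 weeks old, with 3 mice in each group. The paper states these ages for the mice as purchased and does not state the age at collection. YE and OE mice ran on an inclined treadmill for 4 weeks at a speed that was raised every week, and YC and OC mice were sedentary (0 weeks). No transgene or mutation is given for any group, and mice were housed singly. The time of day at which muscles were taken and the interval since the last run are not given in the sources used here.

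Endurance running loads the soleus with repeated contractions. In textbook accounts training of this kind raises mitochondrial content, shifts fuel use toward fatty acids, remodels the connective tissue around fibers and can shift the muscle clock. The clock is a feedback loop in which BMAL1 (encoded by Arntl) and CLOCK activate the Per, Cry, Nr1d1 and Ciart genes from E-box elements. PER and CRY proteins repress BMAL1 and CLOCK, and the nuclear receptor NR1D1 represses Arntl through a second element. Activity, feeding and light all set its phase.

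Levels are given as FPKM, read fragments scaled by transcript length and library size. Fold changes are YE over YC on the authors' log2(FPKM+1) quantile-normalized scale, which understates the change of genes near an FPKM of 1. A gene is said to have risen or fallen where limma gave an unadjusted two-sided p under 0.05, and it is called a differentially expressed gene (DEG) where the fold change was also over 1.5. The read depth is unknown, because no read counts were used here. Each library summed to 386616 to 449858 FPKM over all genes, the 10 highest genes took 16.1% to 19.4% of it, and libraries correlated pairwise across genes with r between 0.982 and 0.992.

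The soleus identity of the libraries was plain. Myh7, the slow myosin heavy chain, was at 2363, 1876 and 2720.5 FPKM in the YE soleus, against 2850.3, 2174 and 2856 FPKM in the YC soleus, and Tnnt1, the slow troponin T, at 2449, 2241 and 2702 FPKM in the YE soleus, against 2755, 1880.3 and 2823 FPKM in the YC soleus. Single libraries stood apart in markers of other cells or fibers. YC replicate 2 was high in adipocyte markers: Adipoq, the adipocyte hormone adiponectin, was at 43.6, 27.9 and 26.2 FPKM in the YE soleus, against 11.3, 43.0 and 10.5 FPKM in the YC soleus. The mean of 16 adipocyte markers with a mean FPKM of at least 1 was 5.57, 5.00 and 5.17 in the YE soleus, against 4.19, 5.64 and 3.97 in the YC soleus on the log2 scale. YC replicate 1 was high in genes of fast fibers, with Myh4, the fastest myosin heavy chain, at 13.4, 13.2 and 23.6 FPKM in the YE soleus, against 240.2, 14.8 and 17.6 FPKM in the YC soleus. YE replicate 1 was high in interferon-induced genes, where the mean of 27 genes was 2.79, 1.80 and 1.73 in the YE soleus, against 1.79, 1.72 and 1.86 in the YC soleus. YE replicate 4 was low in macrophage markers, where the mean of 18 genes was 3.04, 2.85 and 2.05 in the YE soleus, against 2.78, 2.91 and 2.83 in the YC soleus. Summed alpha-globin was 148, 11.1 and 167 FPKM in the YE soleus, against 54.0, 49.4 and 13.7 FPKM in the YC soleus, a wide range within both groups. No neutrophil marker of 12 tested and no T or B cell marker of 11 reached a mean FPKM of 1. In whole muscle, fewer cells of a type and less RNA per cell cannot be told apart.

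To ask how training altered the young soleus, SOL YE was compared with SOL YC gene by gene. No gene of 18795 (0%) passed a Benjamini-Hochberg adjusted p of 0.05 in limma, and the smallest adjusted p was 0.0895. At an unadjusted p under 0.05, 810 genes rose (4.31%) and 894 fell (4.76%). The equal-variance test of the 6 libraries alone also gave 0 genes at an adjusted p of 0.05. With the fold threshold added there were 68 DEGs, of which 30 were upregulated (0.16% of genes) and 38 downregulated (0.202%). The YE and YC values did not overlap for 988 genes in the upward direction (5.26%) and 1074 in the downward direction (5.71%). Among the 30 upregulated DEGs, YC replicate 2 reached the lowest YE value in 12, against 0 for YC replicate 1 and 1 for YC replicate 3. Without YC replicate 2 the DEGs were 87 upregulated and 35 downregulated. Among the 38 downregulated DEGs, YC replicate 3 lay within the YE values in 8, and without it there were 31 upregulated and 77 downregulated DEGs. The genes below are therefore described by their values in each library, and every adjusted p given for this test, with all libraries and its own settings, is above 0.05.

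The molecular clock held the largest of the falls that were named by rank, that of Nr1d1. Of 21 clock genes, 4 rose (Per2, Cry1 and Hlf among them) and 5 fell (Nr1d1, Arntl, Clock, Ciart and Npas2), against 4.31% and 4.76% of all genes. The median log2 fold change of the 21 was -0.01, as members moved in both directions, and the median over all genes was 0.00.

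Nr1d1, which encodes the repressor REV-ERB alpha (chr11:98767932-98775377, GRCm38), was at 42.2, 25.5 and 23.98 FPKM in the YE soleus, against 77.1, 79.5 and 67.7 FPKM in the YC soleus. All 3 YE values lay below all 3 YC values, and the log2 fold change was -1.37 (SE 0.24, limma adjusted p = 0.119). Arntl, the partner of CLOCK whose transcription REV-ERB alpha represses (chr7:113178471-113314126), was at 2.33, 2.34 and 2.43 FPKM in the YE soleus, against 5.12, 4.06 and 4.38 FPKM in the YC soleus. The Arntl values were narrow within YE, did not overlap with YC, and gave a log2 fold change of -0.71 (SE 0.12, limma adjusted p = 0.1). Clock, which encodes the other subunit of the activating dimer (chr5:76209868-76305603), was at 4.44, 4.25 and 3.95 FPKM in the YE soleus, against 5.52, 5.96 and 5.83 FPKM in the YC soleus. Its log2 fold change of -0.38 (SE 0.06) was small but had one of the lowest p-values of the table (limma adjusted p = 0.0895). Npas2, the paralog of Clock, fell as well (log2 fold change -0.17), with a mean FPKM below 1 in both groups.

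The repressor arm was split. Per2, a core repressor, was at 8.39, 7.52 and 7.86 FPKM in the YE soleus, against 5.44, 6.45 and 5.69 FPKM in the YC soleus and rose by 0.40 (SE 0.07, limma adjusted p = 0.136). Cry1, its partner, was at 5.55, 6.80 and 5.69 FPKM in the YE soleus, against 4.75, 4.42 and 4.35 FPKM in the YC soleus and rose by 0.36 (SE 0.08, limma adjusted p = 0.218). Both genes were higher in every YE library than in any YC library. Ciart, a repressor of BMAL1 and CLOCK also known as Chrono, moved the other way. It was at 6.10, 4.98 and 5.31 FPKM in the YE soleus, against 8.11, 14.7 and 7.86 FPKM in the YC soleus, a log2 fold change of -0.80 (SE 0.25, limma adjusted p = 0.38), and the fall was 0.51 without YC replicate 2, the highest library. Per1, Per3, Cry2, Nr1d2 and Dbp did not pass the test. Dbp, a direct clock output that is often used to read the phase, was at 64.4, 49.3 and 56.9 FPKM in the YE soleus, against 58.5, 69.7 and 62.5 FPKM in the YC soleus, and these values overlapped.

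Hlf, a clock output factor of the family of Dbp, was at 5.38, 4.46 and 4.49 FPKM in the YE soleus, against 2.83, 4.57 and 3.97 FPKM in the YC soleus and rose by 0.29 (limma adjusted p = 0.496), a call that was lost without YC replicate 1, YE replicate 1 or YE replicate 2. Of 17 genes fixed as clock-controlled outputs of muscle, 1 rose and 5 fell, against 4.31% and 4.76% of all genes. There were 2 that fell without YC replicate 3. Cdkn1a, the cell cycle inhibitor p21, was at 7.16, 6.19 and 8.80 FPKM in the YE soleus, against 17.2, 21.0 and 7.94 FPKM in the YC soleus, and fell by 0.94 on the log2 scale (limma adjusted p = 0.386). Its YC replicate 3 lay within the YE values, and without that library its adjusted p was 0.0398 in limma. Its call was kept without any 1 library, but was lost with the equal-variance test and with limma on the 6 libraries alone. Tfrc, the transferrin receptor, fell by 0.52 (limma adjusted p = 0.434), a call that was lost without YC replicate 2, YC replicate 3 or YE replicate 4. Wee1, a mitotic kinase driven from E-boxes, rose by 0.28 (limma adjusted p = 0.454), a call that was lost without YC replicate 1, YE replicate 2 or YE replicate 4.

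**Figure D1:**
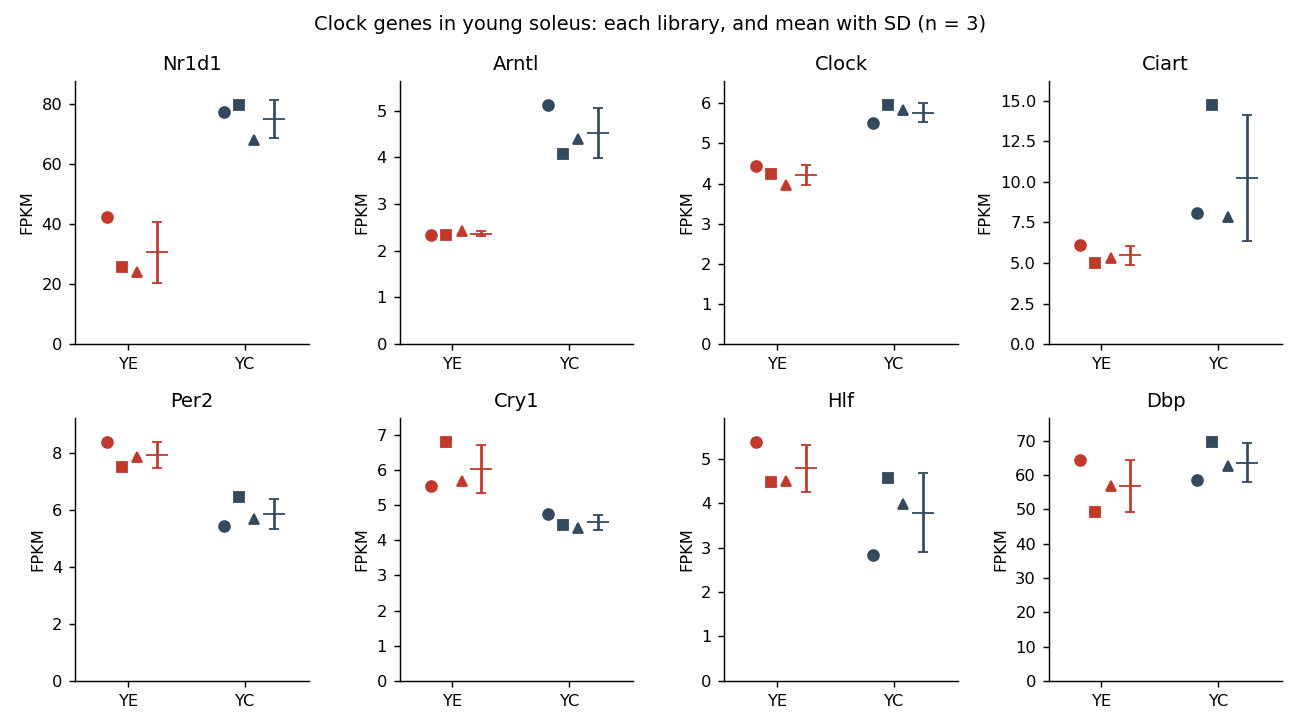
FPKM of 8 clock genes in each library of the YE soleus (left) and the YC soleus (right), with circles for replicate 1, squares for replicate 2, triangles for YE replicate 4 and YC replicate 3, and bars for the mean ± SD (n = 3 each). Nr1d1, Arntl, Clock and Ciart lie lower in every YE library than in any YC library, Per2 and Cry1 lie higher, and Hlf and Dbp overlap.

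The promoter sequences of the clock genes were read because the members moved in opposite directions. Of the 21 genes, 17 had a window in the RefSeq table for GRCm38.p6, which runs 250 bases before to 50 after each annotated start. The E-box CACGTG, which reads the same on both strands, was present in 5 of the 17 (Ciart, Cry1, Per1, Tef and Bhlhe41) and in 8.97% of all 17645 windows, or 10.5% of genes. The half-site AGGTCA, searched on both strands, was present in 5 (Arntl, Clock, Per1, Nr1d2 and Nfil3) and in 13.6% of all windows, or 15.8% of genes. Its longer form TAGGTCA was present in 2 (Arntl and Nfil3) and in 2.02% of all windows, or 2.41% of genes. Ciart, which fell, and Cry1, which rose, both carry the E-box, and Arntl, which fell, carries the half-site, so these 3 windows are shown, 5′ to 3′ along the gene's strand, with the motif in capitals. Ciart is at chr3:95882179-95882478 on the minus strand, with E-boxes that start at -116, -58 and -44 from the annotated start. Cry1 is at chr10:85185005-85185304 on the minus strand, with an E-box at -60. The second of the 2 Arntl windows is at chr7:113207261-113207560 on the plus strand, with the half-site at 32 after the start.
Ciart: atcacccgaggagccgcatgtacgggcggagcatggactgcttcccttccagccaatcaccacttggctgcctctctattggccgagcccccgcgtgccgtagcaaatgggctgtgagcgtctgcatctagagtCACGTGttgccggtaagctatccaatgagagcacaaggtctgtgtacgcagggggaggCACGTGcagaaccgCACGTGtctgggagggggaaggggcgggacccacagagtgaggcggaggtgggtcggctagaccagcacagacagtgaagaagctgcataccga
Cry1: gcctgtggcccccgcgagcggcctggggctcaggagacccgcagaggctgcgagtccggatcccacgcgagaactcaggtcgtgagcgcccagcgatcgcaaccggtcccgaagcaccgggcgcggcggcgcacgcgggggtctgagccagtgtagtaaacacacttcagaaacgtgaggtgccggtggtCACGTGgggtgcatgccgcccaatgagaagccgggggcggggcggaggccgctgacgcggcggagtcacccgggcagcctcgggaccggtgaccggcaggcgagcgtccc
Arntl: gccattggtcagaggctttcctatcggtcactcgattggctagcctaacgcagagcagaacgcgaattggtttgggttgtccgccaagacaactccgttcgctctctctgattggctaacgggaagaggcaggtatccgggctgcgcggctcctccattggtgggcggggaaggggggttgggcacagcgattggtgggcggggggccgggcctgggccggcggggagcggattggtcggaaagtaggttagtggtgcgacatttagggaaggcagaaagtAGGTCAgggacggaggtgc

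A shared E-box thus stood in the window of a gene that rose and of one that fell. The Nr1d1 window (chr11:98775328-98775627, minus strand) held neither the E-box nor the half-site, which says nothing about sites outside these 300 bases.

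Genes of the extracellular matrix were mostly lower in the YE soleus. Over 5 matrix lists with 114 genes, 37 fell and 1 rose, against 4.76% and 4.31% of all genes. Of the 114, 100 had a log2 fold change below 0, and the median was -0.23, against 0.00 over all genes. Matrix content differed between libraries of 1 group. The mean log2 level of the 100 matrix genes with a mean FPKM of at least 1 was 3.54, 3.23 and 3.35 in the YE soleus, against 3.60, 3.98 and 3.46 in the YC soleus, so that YC replicate 3 lay below YE replicate 1. Without YC replicate 2 the median was -0.09, with 16 genes that fell and 2 that rose, and without YE replicate 2 it was -0.14, with 17 that fell. Without YC replicate 3, 47 fell. With the equal-variance test 13 fell and 1 rose, and with limma on the 6 libraries alone 21 fell. YC replicate 2 was also the highest library for tenocyte markers such as Tnmd, a tendon membrane protein, at 25.1, 15.3 and 20.6 FPKM in the YE soleus, against 23.5, 39.4 and 21.5 FPKM in the YC soleus. Tenocyte markers were below 0 in 11 of 12, and 1, the tendon transcription factor Scx, fell, a count near the 4.76% of all genes. Endothelial markers were below 0 in 12 of 14, of which 3 fell (Cdh5, Tie1 and Esam), and their mean log2 level was 4.91, 4.76 and 4.80 in the YE soleus, against 4.85, 5.18 and 4.84 in the YC soleus. Fibroblast markers were below 0 in 10 of 16, of which 2 fell (Col3a1 and Lox, also counted as matrix genes), and their mean log2 level was 5.02, 4.70 and 4.45 in the YE soleus, against 4.72, 5.07 and 4.79 in the YC soleus. YC replicate 2 was the highest library for both. Whether the amount of connective tissue in a dissected muscle sets these values was not tested.

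Of the lists, elastic fibre genes had the largest share of falls. Of 24 elastic fibre genes, 14 fell and 0 rose, against 4.76% and 4.31% of all genes, with a median of -0.29. Of the 14, 13 had a mean FPKM of at least 1. There were 6 that fell without YC replicate 2 and 7 without YE replicate 2, while the median lay between -0.37 and -0.20 when any 1 library was left out. Eln, which encodes elastin itself (chr5:134702595-134747368), was at 9.34, 8.87 and 10.5 FPKM in the YE soleus, against 18.3, 15.1 and 14.3 FPKM in the YC soleus. The groups did not overlap, and the log2 fold change was -0.72 (SE 0.13, limma adjusted p = 0.131). Fbn1, fibrillin 1, the backbone of the microfibrils on which elastin is laid, was at 9.03, 5.36 and 5.63 FPKM in the YE soleus, against 12.2, 13.4 and 9.94 FPKM in the YC soleus, and its log2 fold change was -0.81 (SE 0.19, limma adjusted p = 0.233). Mfap2, a microfibril protein that binds fibrillin, was at 2.08, 2.32 and 2.09 FPKM in the YE soleus, against 3.90, 4.94 and 2.95 FPKM in the YC soleus and fell by 0.62 (limma adjusted p = 0.166). All 3 genes kept a p under 0.05 without any 1 library. Loxl1, an enzyme that crosslinks elastin, was at 7.85, 6.25 and 5.01 FPKM in the YE soleus, against 10.4, 10.7 and 8.97 FPKM in the YC soleus and fell by 0.63 (limma adjusted p = 0.268). Its relatives Loxl2, Loxl3, Loxl4 and Lox fell too, by 0.70, 0.38, 0.23 and 0.70 on the log2 scale, as did Fbln5, fibulin 5, by 0.29. The falls of Loxl2, Loxl3, Loxl4 and Lox, but not that of Fbln5 or Loxl1, were lost without YC replicate 2, and that of Lox was kept only without YC replicate 3. The genes that fell included those of elastin, its scaffold and enzymes that crosslink it, but none had an adjusted p under 0.05. With the equal-variance test 7 of the 24 genes fell and 0 rose.

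Among 11 fibrillar and fibril-associated collagens, 10 were below 0 and 4 fell, against 4.76% of all genes. The count was 1 without YC replicate 1, YC replicate 2, YE replicate 2 or YE replicate 4, and 0 with the equal-variance test. Col3a1, the collagen of compliant tissue, was at 39.8, 23.8 and 21.6 FPKM in the YE soleus, against 51.3, 52.4 and 41.4 FPKM in the YC soleus, a log2 fold change of -0.85 (SE 0.32, limma adjusted p = 0.473). That call was lost without YC replicate 1, YC replicate 2, YE replicate 2 or YE replicate 4. Col5a3, a chain of the collagen that starts fibrils, was at 5.44, 3.02 and 4.54 FPKM in the YE soleus, against 8.58, 10.5 and 5.49 FPKM in the YC soleus, fell by 0.81 (limma adjusted p = 0.317), and passed without any 1 library. Col1a1, the main chain of type I collagen, was at 69.2, 35.4 and 60.3 FPKM in the YE soleus, against 63.6, 105 and 51.1 FPKM in the YC soleus, and these values overlapped (limma adjusted p = 0.815). Of 21 basement membrane genes 4 fell (Col4a2, Col15a1, Lama5 and Hspg2), but 1, Col15a1, passed in the fits without YC replicate 2 or without YE replicate 2. Of 33 genes for matrix assembly and matricellular proteins 9 fell, with 2 without YC replicate 2, 5 without YE replicate 2 and 4 without YE replicate 4. Cilp, a matrix protein known to restrain growth factor signalling in cartilage, was at 30.4, 19.9 and 27.2 FPKM in the YE soleus, against 52.7, 79.6 and 36.3 FPKM in the YC soleus. It was the largest fall of the matrix genes whose groups did not overlap, with a log2 fold change of -1.10 (SE 0.33, limma adjusted p = 0.336), and -0.78 without YC replicate 2. Tgfb1, the growth factor that drives matrix synthesis, was at 6.03, 3.80 and 4.63 FPKM in the YE soleus, against 7.64, 8.32 and 5.52 FPKM in the YC soleus and fell by 0.51 (limma adjusted p = 0.334).

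Matrix proteases were also mostly below 0. Of 25 proteases and inhibitors 19 were below 0, 6 fell and 1 rose, against 4.76% and 4.31% of all genes. There were 3 that fell without YE replicate 2. Mmp14, a membrane-bound collagenase, was at 6.18, 4.42 and 4.76 FPKM in the YE soleus, against 7.90, 10.1 and 6.52 FPKM in the YC soleus and fell by 0.61 (limma adjusted p = 0.31). Adamts1, a secreted protease that cleaves proteoglycans, was the gene that rose, at 22.0, 27.4 and 20.2 FPKM in the YE soleus, against 15.2, 14.8 and 15.9 FPKM in the YC soleus, by 0.55 (SE 0.22, limma adjusted p = 0.496). Every YE value of Adamts1 was above every YC value, but the call was kept in only 1 of 6 fits that left out a library, the fit without YE replicate 4.

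**Figure D2:**
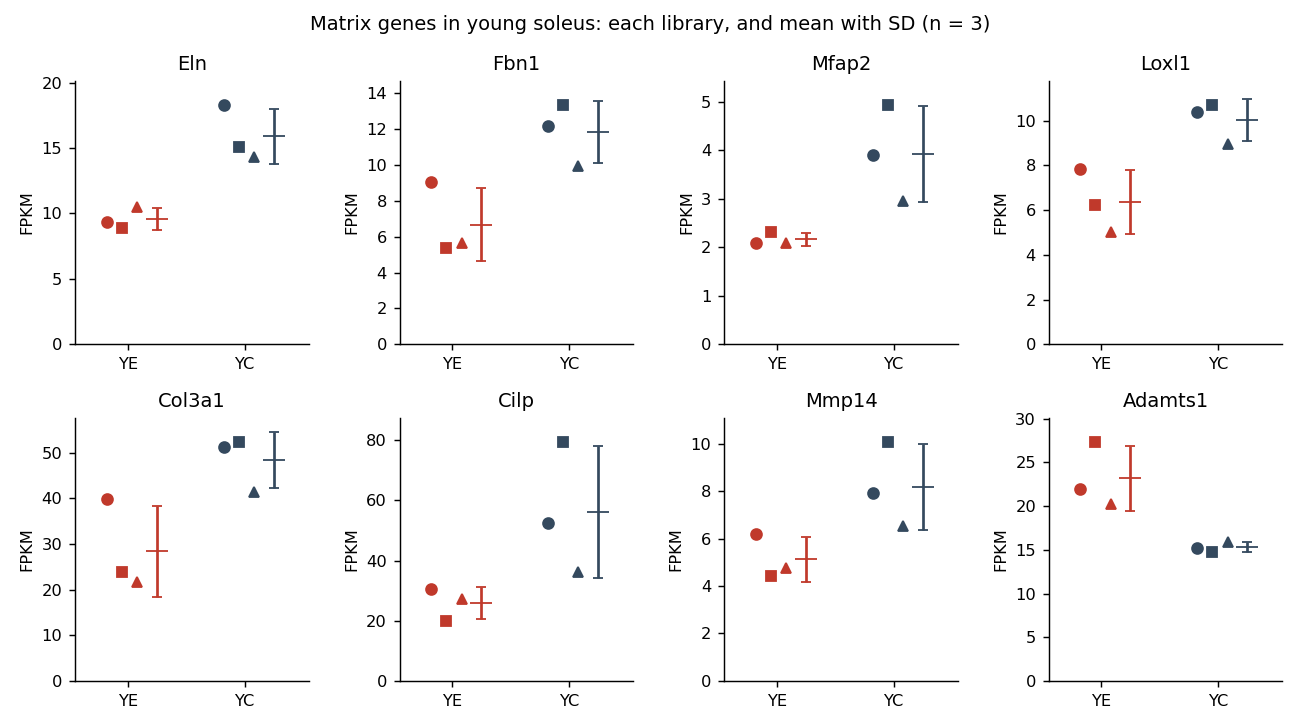
FPKM of 8 extracellular matrix genes in each library of the YE soleus (left) and the YC soleus (right), with circles for replicate 1, squares for replicate 2, triangles for YE replicate 4 and YC replicate 3, and bars for the mean ± SD (n = 3 each). Eln, Fbn1, Mfap2, Loxl1, Col3a1, Cilp and Mmp14 lie lower in every YE library than in any YC library, and Adamts1 lies higher.

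Genes that respond to load, stress or nerve activity were lower in part. Of 32 immediate early and stress response genes, which contraction is known to induce soon after a bout, 4 fell (Egr1, Junb, Nr4a1 and Egr2) and 0 rose, against 4.76% and 4.31% of all genes. Egr2 had a mean FPKM below 1 in both groups. Egr1, a zinc finger factor of the class, was at 2.95, 2.83 and 2.66 FPKM in the YE soleus, against 3.87, 9.20 and 7.61 FPKM in the YC soleus, with the largest fall of the list, -1.02 (limma adjusted p = 0.532), and its call was kept only without YC replicate 1. Nr4a1, an orphan nuclear receptor induced by contraction, was at 22.9, 21.6 and 28.6 FPKM in the YE soleus, against 51.7, 36.7 and 29.0 FPKM in the YC soleus. YC replicate 3 was close to the highest YE library, and the log2 fold change was -0.69 (SE 0.19, limma adjusted p = 0.312). Junb, a subunit of the AP-1 factor, was at 4.79, 3.74 and 3.75 FPKM in the YE soleus, against 6.82, 8.02 and 6.62 FPKM in the YC soleus and fell by 0.71 (limma adjusted p = 0.285). Fos, the best known gene of the class, was at 3.76, 4.16 and 2.32 FPKM in the YE soleus, against 3.77, 4.36 and 5.83 FPKM in the YC soleus, and these values overlapped.

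Of 33 mechanosensitive genes of the sarcomere, 8 fell and 0 rose, against 4.76% and 4.31% of all genes, with a median of -0.14, and 4 fell without YE replicate 2. Csrp3, the muscle LIM protein of the Z-disc, was at 309, 279 and 242 FPKM in the YE soleus, against 418, 452 and 355 FPKM in the YC soleus, did not overlap between groups and fell by 0.60 (SE 0.15, limma adjusted p = 0.27). Ankrd2, a stretch-induced protein of slow fibers, was at 373, 309 and 429 FPKM in the YE soleus, against 818, 623 and 407 FPKM in the YC soleus. Its YC replicate 3 lay within the YE values, and its fall of 0.73 (limma adjusted p = 0.412) was lost without YC replicate 1, YC replicate 2 or YE replicate 2. Hspb7, a small heat shock protein of muscle, was at 1039, 1025 and 1159 FPKM in the YE soleus, against 1415, 1267 and 1238 FPKM in the YC soleus and fell by 0.41 (limma adjusted p = 0.257). Of 27 heat shock proteins and chaperones 8 fell and 0 rose, beside the same shares of all genes. Hsp90aa1, the inducible cytosolic HSP90, was at 26.8, 23.5 and 23.9 FPKM in the YE soleus, against 29.3, 29.7 and 29.6 FPKM in the YC soleus and fell by 0.29 (limma adjusted p = 0.332), and Hsph1, a partner of HSP70, fell by 0.34 (limma adjusted p = 0.31). Without quantile normalization 4 chaperone genes fell and 1 rose, and 4 fell without YC replicate 1 or YC replicate 2 and 3 without YE replicate 2.

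Of 18 genes of muscle development and denervation, 3 fell and 0 rose, against 4.76% and 4.31% of all genes, while 9 were above 0 and 9 below, with a median of -0.0029. Ncam1, a cell adhesion molecule of denervated fibers, was at 5.90, 5.63 and 7.09 FPKM in the YE soleus, against 9.22, 9.24 and 8.80 FPKM in the YC soleus and fell by 0.52 (SE 0.10, limma adjusted p = 0.166). Chrnb1, a subunit of the acetylcholine receptor, was at 9.91, 10.3 and 10.8 FPKM in the YE soleus, against 12.9, 13.2 and 13.8 FPKM in the YC soleus and fell by 0.38 (limma adjusted p = 0.218). Runx1, a transcription factor that rises after denervation, was at 0.897, 0.693 and 0.744 FPKM in the YE soleus, against 1.23, 1.77 and 0.966 FPKM in the YC soleus and fell by 0.33 (limma adjusted p = 0.372). None of the 3 overlapped between groups.

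**Figure D3:**
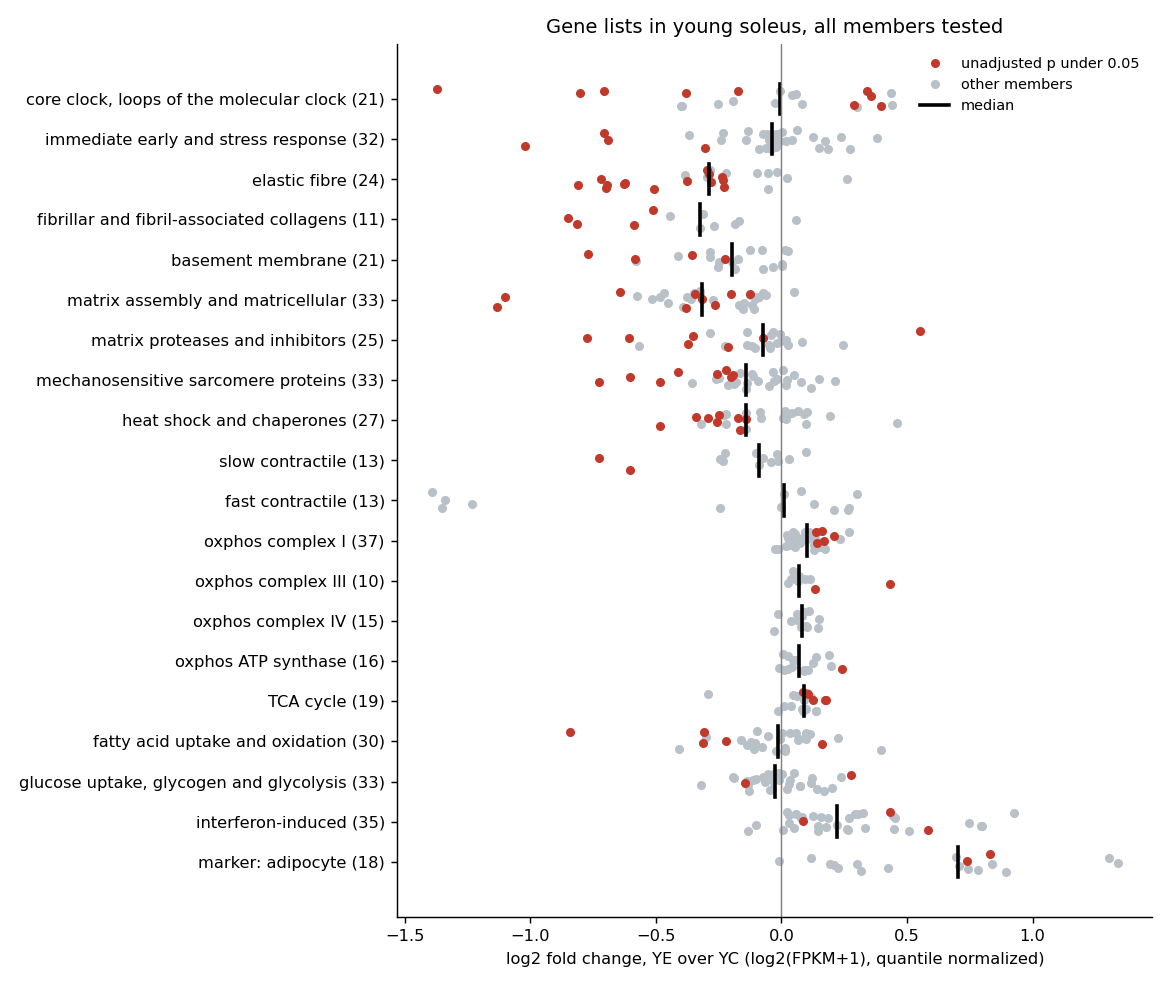
log2 fold change of YE over YC for each tested member of 20 gene lists in the young soleus, with the number of members in parentheses, red points for an unadjusted limma p under 0.05, grey points for the others and black bars for the median. The elastic fibre list lies to the left at a median of -0.29 with 14 of 24 genes red, the respiratory complexes lie narrowly to the right of 0, and adipocyte markers lie at a median of 0.70 with 2 of 18 red.

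Most nuclear genes of the respiratory chain had small values above 0. Of 82 respiratory chain subunits, 10 rose and 0 fell, against 4.31% and 4.76% of all genes, 77 were above 0, and the median was 0.09. The mean log2 level of the 82 genes was 8.10, 8.22 and 8.09 in the YE soleus, against 8.05, 8.01 and 8.06 in the YC soleus. The 3 YE libraries lay above the 3 YC libraries, by a margin that was small beside the gap between YE replicate 2 and the other YE libraries. Without YE replicate 2 the median was 0.05, and without quantile normalization it was 0.16. The count of rises was 4 without YC replicate 1 and 6 without YC replicate 2.

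Ndufb4, an accessory subunit of complex I, was at 182, 217 and 173 FPKM in the YE soleus, against 158, 145 and 171 FPKM in the YC soleus and rose by 0.21 (SE 0.05, limma adjusted p = 0.285). Sdha, the catalytic subunit of complex II that joins the chain to the TCA cycle, was at 523, 584 and 529 FPKM in the YE soleus, against 473, 444 and 505 FPKM in the YC soleus and rose by 0.13 (SE 0.04, limma adjusted p = 0.313). Both passed without any 1 library. Uqcrq of complex III had the largest value, 0.43 (limma adjusted p = 0.538), but it was at 131, 247 and 169.7 FPKM in the YE soleus, against 134, 113 and 134 FPKM in the YC soleus and kept its p under 0.05 in 1 of 6 fits that left out a library. Of 15 complex IV subunits 0 passed. In the TCA cycle 5 of 19 genes rose and 0 fell, against 4.31% and 4.76% of all genes, and 3 rose without YC replicate 1. Sucla2, which makes succinate from succinyl-CoA, was at 263, 289 and 269 FPKM in the YE soleus, against 233, 216 and 252 FPKM in the YC soleus and rose by 0.18 (limma adjusted p = 0.31). Ppargc1a, the coactivator PGC-1 alpha that drives mitochondrial biogenesis, was at 10.9, 8.96 and 12.9 FPKM in the YE soleus, against 7.34, 9.44 and 10.1 FPKM in the YC soleus. Its YE and YC values overlapped, and it did not pass (limma adjusted p = 0.718).

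Genes of fat handling passed in both directions. Of 30 genes for fatty acid uptake and oxidation 1 rose and 4 fell, against 4.31% and 4.76% of all genes, and 1 fell without YC replicate 2 or YE replicate 2. Cd36, the fatty acid transporter of the surface membrane, was at 207, 216 and 218 FPKM in the YE soleus, against 242, 248 and 256 FPKM in the YC soleus, lower in every YE library than in any YC library, with a log2 fold change of -0.31 (SE 0.11, limma adjusted p = 0.421) that was lost without YC replicate 2 or YE replicate 2. Fabp3, the fatty acid binding protein of the cytosol, was at 2302, 3069 and 1883 FPKM in the YE soleus, against 2889.6, 2813 and 3818 FPKM in the YC soleus. These FPKM overlapped, and its log2 fold change of -0.84 (limma adjusted p = 0.454) was -0.41 without quantile normalization and then did not pass, nor did it without YC replicate 3, YE replicate 1 or YE replicate 4. Echs1, an enzyme of beta-oxidation, rose by 0.16 (limma adjusted p = 0.397). Of 20 genes for lipid droplets and lipolysis 1 rose (Dgat2) and 3 fell (Plin5, Mgll and Fitm2), while 16 were above 0, and 6 rose and 1 fell without YC replicate 2. Plin5, the perilipin that tethers lipid droplets to mitochondria, was at 19.7, 23.4 and 24.2 FPKM in the YE soleus, against 38.3, 41.1 and 34.1 FPKM in the YC soleus. It fell by 0.80 (SE 0.13, limma adjusted p = 0.1) and was lower in every YE library than in any YC library. Dgat2, which makes triglyceride, was at 139.9, 145 and 161 FPKM in the YE soleus, against 115, 121 and 123 FPKM in the YC soleus and rose by 0.26 (limma adjusted p = 0.386), a call that was lost without YC replicate 1. Of 33 genes for glucose uptake, glycogen and glycolysis 1 rose and 1 fell.

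**Figure D4:**
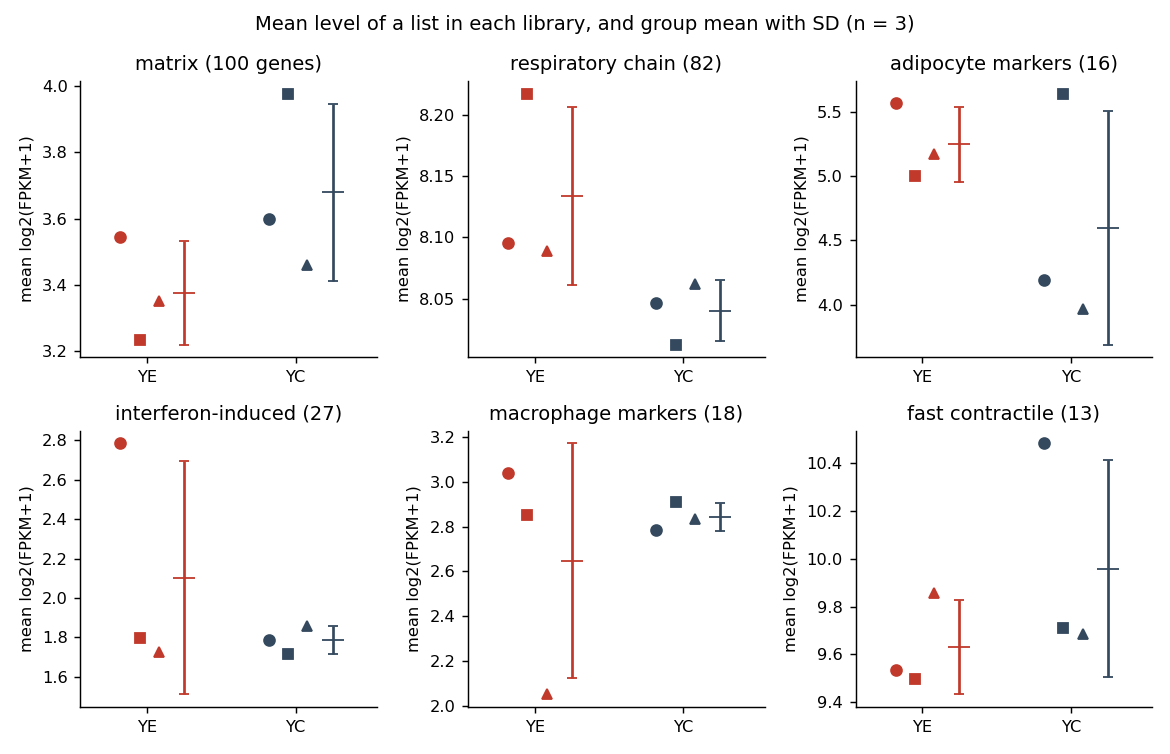
Mean log2(FPKM+1) level over the members with a mean FPKM of at least 1 of 6 gene lists, in each library of the YE soleus (left) and the YC soleus (right), with circles for replicate 1, squares for replicate 2, triangles for YE replicate 4 and YC replicate 3, and bars for the mean ± SD (n = 3 each). Matrix genes and adipocyte markers are highest in YC replicate 2 (3.98 and 5.64), interferon-induced genes stand out in YE replicate 1 (2.79), macrophage markers are lowest in YE replicate 4 (2.05), and genes of fast fibers are highest in YC replicate 1 (10.5).

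Outside these groups stood the gene with the lowest p of the table. Slc41a3 (chr6:90604730-90646412), a magnesium transporter of mitochondria, was at 14.7, 13.9 and 14.7 FPKM in the YE soleus, against 28.4, 25.5 and 21.8 FPKM in the YC soleus. The lowest YC library lay well above all 3 YE libraries, and the log2 fold change was -0.82 (SE 0.09, limma adjusted p = 0.0895). Leaving out genes that did not reach an FPKM of 1 in 3 of the 6 libraries gave it an adjusted p of 0.0163 in limma. Ndrg4, a cytoplasmic protein known from heart and brain, was at 3.75, 4.57 and 3.59 FPKM in the YE soleus, against 7.14, 8.47 and 7.20 FPKM in the YC soleus and fell by 0.83 (limma adjusted p = 0.35). Gpc4, a heparan sulfate proteoglycan of the cell surface, was at 11.7, 9.69 and 11.5 FPKM in the YE soleus, against 14.4, 14.4 and 15.2 FPKM in the YC soleus and fell by 0.43 (SE 0.06, limma adjusted p = 0.0895).

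Metabolic and channel genes were among the rises. Mid1ip1 (chrX:10717365-10719702), which activates acetyl-CoA carboxylase, was at 73.3, 85.6 and 68.7 FPKM in the YE soleus, against 36.9, 44.1 and 46.3 FPKM in the YC soleus. Its log2 fold change was 0.82 (SE 0.12, limma adjusted p = 0.0895), and it passed without any 1 library. Kcng4, a modifier subunit of voltage-gated potassium channels, was at 5.95, 8.15 and 8.74 FPKM in the YE soleus, against 3.45, 3.27 and 4.30 FPKM in the YC soleus, the largest rise among the genes named by rank, at 0.90 (SE 0.18, limma adjusted p = 0.16). Klhl33, a kelch-like protein, was at 38.3, 39.6 and 41.6 FPKM in the YE soleus, against 24.7, 24.5 and 24.5 FPKM in the YC soleus and rose by 0.69 (SE 0.10, limma adjusted p = 0.0895). Slc46a3, a transporter of the lysosomal membrane, was at 6.61, 6.76 and 6.86 FPKM in the YE soleus, against 2.96, 3.16 and 4.84 FPKM in the YC soleus and rose by 0.77 (limma adjusted p = 0.21). Glul, glutamine synthetase, was at 143, 168 and 186 FPKM in the YE soleus, against 99.2, 131 and 98.9 FPKM in the YC soleus and rose by 0.55 (limma adjusted p = 0.307).

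Ppp3cb, the beta catalytic subunit of calcineurin, the calcium-activated phosphatase of the slow fiber program, was at 32.7, 34.1 and 32.2 FPKM in the YE soleus, against 17.3, 16.5 and 22.0 FPKM in the YC soleus and rose by 0.82 (SE 0.30, limma adjusted p = 0.455). It did not overlap between groups, but it passed in only 1 of 6 fits that left out a library, the fit without YC replicate 3. Of 33 genes of calcineurin and calcium handling, 1 rose and 2 fell, near the shares of all genes (4.31% and 4.76%). Wwp1, a ubiquitin ligase, had a small rise with little spread, at 45.8, 47.4 and 46.8 FPKM in the YE soleus, against 37.0, 37.5 and 37.9 FPKM in the YC soleus, a log2 fold change of 0.30 (SE 0.04, limma adjusted p = 0.0895). Its adjusted p was 0.0205 in limma without quantile normalization. Of 15 rises and 15 falls that were named by size, 10 and 11 kept a p under 0.05 without any 1 library. The 9 others were Ppp3cb, Ramp1, Cntfr, H2afv and Slc30a2 among the rises and Egr1, Col3a1, Col4a2 and S100a4 among the falls. All of these genes were picked from the same libraries for a p under 0.05 and no overlap, so the counts are not independent of that choice.

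Genes of growth signalling passed in both directions, and those of protein turnover passed only as rises. Of all genes 4.31% (higher) and 4.76% (lower) passed. The counts of the myogenic list lay near those shares. Of 28 atrophy and protein turnover genes 6 rose and 0 fell, but the median was -0.04 and 15 were below 0, and 3 rose and 2 fell without YC replicate 2. Of 27 genes of insulin and IGF signalling 2 rose (Eif4ebp1 and Foxo4) and 4 fell (Grb10, Pik3ca, Grb14 and Rptor), with a median of -0.0057, and 1 fell without YE replicate 2. Grb10 and Grb14, adaptors that restrain the insulin receptor, fell by 0.29 and 0.18 on the log2 scale (limma adjusted p = 0.418 and 0.31). Of 24 myogenic regulators and satellite cell genes 1 rose (Met) and 2 fell (Myf5 and Tmem8c), of which 0 fell without YE replicate 1. Of these 2, 1 had a mean FPKM of at least 1. Of 20 myokines 3 rose (Il15, Nrg4 and Bmp7), 2 of them with a mean FPKM of at least 1, and 13 were below 0. Tfeb, the transcription factor for lysosome genes, was at 24.5, 24.95 and 25.4 FPKM in the YE soleus, against 20.9, 19.5 and 21.3 FPKM in the YC soleus and rose by 0.26 (SE 0.06, limma adjusted p = 0.218). Eif4ebp1, a repressor of translation that mTORC1 inactivates, was at 42.3, 39.7 and 37.7 FPKM in the YE soleus, against 33.8, 23.9 and 34.3 FPKM in the YC soleus and rose by 0.39 (limma adjusted p = 0.366). Pik3r1, the regulatory subunit of PI3 kinase, was at 18.2, 19.1 and 22.0 FPKM in the YE soleus, against 14.2, 9.19 and 12.0 FPKM in the YC soleus, higher in every YE library than in any YC library. Its log2 fold change of 0.73 (SE 0.35) did not pass (limma adjusted p = 0.591), although it did with limma on the 6 libraries alone, with the equal-variance test and with the FPKM minimum. Met, the receptor of hepatocyte growth factor, was at 4.47, 3.85 and 3.88 FPKM in the YE soleus, against 3.11, 3.29 and 3.17 FPKM in the YC soleus and rose by 0.28 (limma adjusted p = 0.21). Il15, a cytokine made by contracting muscle, was at 2.75, 3.69 and 2.64 FPKM in the YE soleus, against 1.24, 2.16 and 2.16 FPKM in the YC soleus and rose by 0.49 (limma adjusted p = 0.339). Fiber type genes did not rise: of 13 slow contractile genes 2 fell (Csrp3 and Ankrd2), and of 13 fast contractile genes 0 passed.

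Adipocyte markers were mostly above 0, but 1 control library was high in them. Of 18 adipocyte markers 17 were above 0, with a median of 0.70, but only 2 rose, against 4.31% of all genes. They were Adig and Thrsp, a lipogenic regulator whose call was kept only without YC replicate 2 or YE replicate 4. Acly, ATP citrate lyase, the source of acetyl-CoA for fat synthesis, was at 47.1, 21.3 and 25.6 FPKM in the YE soleus, against 10.8, 28.4 and 9.14 FPKM in the YC soleus and rose by 1.03 (SE 0.42, limma adjusted p = 0.504). Fasn, fatty acid synthase, was at 77.5, 35.9 and 50.9 FPKM in the YE soleus, against 15.2, 63.2 and 8.83 FPKM in the YC soleus and did not pass (limma adjusted p = 0.587). Tkt, transketolase, was at 27.2, 15.9 and 17.8 FPKM in the YE soleus, against 6.56, 17.6 and 5.14 FPKM in the YC soleus and rose by 1.14 (limma adjusted p = 0.417). Acly and Tkt did not pass without YC replicate 1, YC replicate 3 or YE replicate 1. Each of these genes was high in YC replicate 2, the library with the highest mean log2 level of adipocyte markers, and low in the 2 other YC libraries. By summed FPKM of all 18 markers, YC replicate 2 was highest of the YC soleus, at 2479 against 2305 and 2302. It was below the 3166, 2699 and 2637 of the YE soleus. Without YC replicate 2, 14 of 18 adipocyte markers rose, with a median of 1.07. DEGs of all genes also shifted upward in that fit, to 87 upregulated and 35 downregulated, against 30 and 38 with all libraries. Adig, also called adipogenin, was the exception in that all 3 YC libraries were low. It was at 10.2, 10.4 and 9.69 FPKM in the YE soleus, against 5.39, 6.65 and 5.30 FPKM in the YC soleus, with a log2 fold change of 0.74 (SE 0.12, limma adjusted p = 0.1). Acly, Fasn and Tkt were chosen after their values were seen, and whether fat attached to the muscle sets them was not tested.

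Interferon-induced genes, macrophage markers and globins gave no group difference that held across libraries. Of 35 interferon-induced genes 3 rose, against 4.31% of all genes, with 10 without YE replicate 4 and 1 without YE replicate 1 or YC replicate 1. Of the 35, 33 were above 0, with a median of 0.22 that was -0.01 without YE replicate 1. Only 1 of the 3 that rose had a mean FPKM of at least 1. Of 20 macrophage markers 0 passed. Hba-a2, an alpha-globin gene, had the largest fold change among genes with a mean FPKM of at least 1 (log2 4.65), but its near-identical copy Hba-a1 had -3.16. The assignment of reads between these copies is uncertain, and their sum overlapped between groups.

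To ask whether these changes were shared with the other muscle, the YE/YC difference of the soleus was set against that of the gastrocnemius (GAS YE and GAS YC, n = 3 each). In the GAS YE/YC comparison there were 39 DEGs, and 8 were shared with the soleus (11.8% of its 68 and 20.5% of the 39). They were Nr1d1, Ciart, Cdkn1a, Col5a3, Acly and Cntfr, which went in 1 direction in both muscles, and Nmrk2 and Hba-a2, which did not. The difference between muscles passed an adjusted p of 0.05 in limma for 0 genes (0%), with a smallest adjusted p of 0.0667, and an unadjusted p under 0.05 for 665 genes (3.54%). The equal-variance test gave 1 gene, Gm11992, with a mean FPKM near 0. Replicate numbers recur in both muscles, but no source states that a number is 1 mouse. The deviations of same-numbered libraries from the group means correlated between 0.08 and 0.35 across genes, over 0.1 in all young pairs but YC number 3. With number within group as a block, 0 genes passed an adjusted p of 0.05 in limma, with a smallest adjusted p of 0.0873, and 792 had an unadjusted p under 0.05. Nr1d1 had a log2 fold change of -1.37 in the soleus and -0.75 in the gastrocnemius, and this difference passed the unadjusted threshold only with the block (limma adjusted p = 1 without it and 1 with it). Arntl, Per2 and Ciart had -0.54, 0.37 and -0.85 in the gastrocnemius, and the differences from the soleus did not pass with or without it (limma adjusted p = 1, 1 and 1). Slc41a3 differed between muscles at the unadjusted threshold, with -0.82 in the soleus and -0.12 in the gastrocnemius (limma adjusted p of the difference = 0.167, 0.921 with the block, and 0.0189 without SOL YC replicate 3). So did Pik3r1, which was 0.73 in the soleus and -0.61 in the gastrocnemius (limma adjusted p of the difference = 1), and Adamts1 was 0.55 and -0.27 in the same order (limma adjusted p = 1). The matrix genes with a mean FPKM of at least 1 had a median of -0.28 in the soleus and 0.00 in the gastrocnemius. Few of them differed between muscles at the unadjusted threshold. It was passed by 1 of 24 elastic fibre genes, 0 of 11 collagens and 0 of 21 basement membrane genes. It was also passed by 4 of 33 assembly and matricellular genes and 1 of 25 proteases and inhibitors. Eln and Fbn1 had -0.51 and -0.30 in the gastrocnemius, and neither differed from the soleus at that threshold.

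The exercise effect in the young soleus was also set against that in the old soleus, OE over OC. The OE/OC comparison had 28 DEGs, of which 6 were shared (8.82% of the 68 and 21.4% of the 28): Ciart, Kcng4, Nr4a1, Csrp3, Ankrd2 and the microRNA gene Mir8112, all in 1 direction. The difference between ages passed an adjusted p of 0.05 in limma for 0 genes (0%), with a smallest adjusted p of 0.158, and an unadjusted p under 0.05 for 1156 genes (6.15%). The equal-variance test also gave 0 genes. Clock genes with a fall or rise in the young soleus were among the genes that differed by age at the unadjusted threshold. Arntl had -0.71 in the young soleus and 0.56 in the old soleus, opposite directions with a difference of -1.27 (limma adjusted p = 0.169). Per2 had 0.40 in the young and -0.25 in the old soleus (limma adjusted p of the difference = 0.347), and Cry1 0.36 and -0.22 (limma adjusted p = 0.35). Nr1d1 had -1.37 in the young and -0.17 in the old soleus (limma adjusted p = 0.573), while Ciart had like values in both, at -0.80 and -0.80. Control levels of these genes also differed by age. In the OC soleus Nr1d1 was at 26.0, 22.4 and 28.3 FPKM, Arntl at 2.39, 2.44 and 3.30 and Ciart at 7.37, 4.31 and 7.68, each below every YC value. Of 24 elastic fibre genes, 9 differed by age at the unadjusted threshold, all with a more negative value in the young soleus. Eln had -0.72 in the young and 0.14 in the old soleus (limma adjusted p of the difference = 0.458), and Fbn1 -0.81 and 0.21 (limma adjusted p = 0.533). In the OC soleus Eln was at 7.02, 5.49 and 7.67 FPKM and Fbn1 at 4.99, 4.03 and 5.05, also below every YC value. Csrp3 and Ankrd2 had -0.68 and -0.81 in the old soleus, close to their young values, with differences of 0.08 (SE 0.21) and 0.08 (SE 0.35). The OC levels of Csrp3 overlapped with its YC levels, and those of Ankrd2 lay above its YC levels. Whether the control level sets the differences between ages was not tested. Because the time of collection is not given, training and clock phase at collection cannot be told apart for the clock genes in any of the comparisons.

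**Figure D5:**
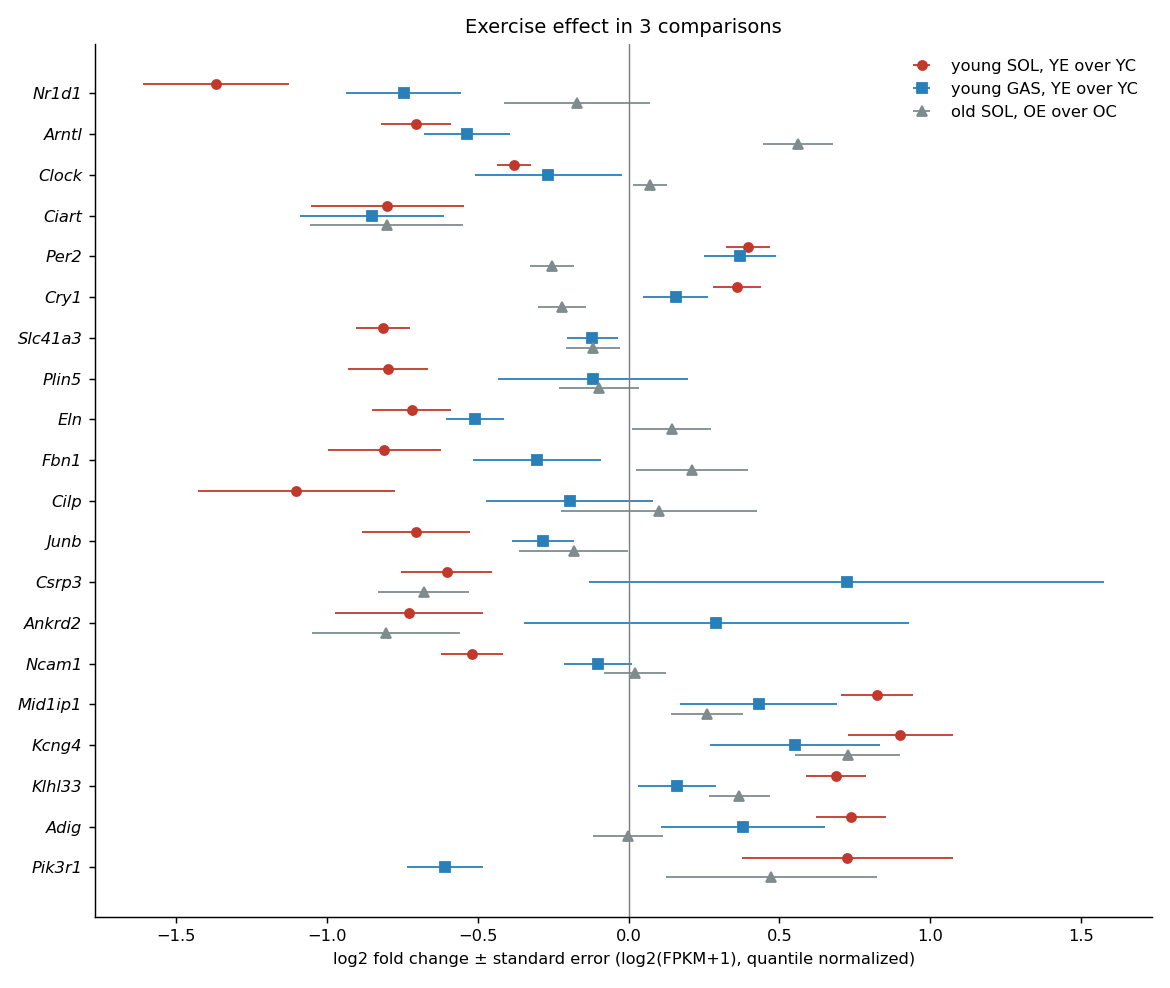
log2 fold change ± SE (limma) of 20 genes in the young soleus (YE over YC, red circles), the young gastrocnemius (YE over YC, blue squares) and the old soleus (OE over OC, grey triangles), with 3 libraries in each group. Arntl, Clock, Per2 and Cry1 in the old soleus lie on the other side of 0 from the young soleus, Ciart, Csrp3, Ankrd2 and Kcng4 lie close to it, and Slc41a3 is far from 0 in the young soleus and near 0 in the other comparisons.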

How the data were processed

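RNA was isolated from the soleus and gastrocnemius of 3 mice per group and sequenced as poly-A selected, stranded libraries. The authors mapped reads to mm10 with HISAT2 2.1.0 and used StringTie 1.3.4d for assembly and abundance. HISAT, Bowtie, Bowtie2, BWA, STAR and SAMtools are also listed in the submitters' processing notes, with no role stated. The deposited FPKM values and the deposited log2(FPKM+1) values, which the authors quantile normalized over 24 libraries, were used (18795 genes), and recomputation from FPKM gave the log2 values within 5e-09. The authors' columns of comparisons (fold changes, p-values, adjusted p-values and group means) were not used. No read counts were used, so depth is unknown.

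Groups came from sample titles. SOL YE and SOL YC (n = 3 each) were compared with limma 3.58.1 (R 4.3.3) with an intensity trend on all 12 soleus libraries, two-sided, with Benjamini-Hochberg adjustment over all genes. An exact permutation test of 3 against 3 libraries cannot go below p = 0.1. DEGs were genes past a fold change of 1.5 whose unadjusted p was under 0.05. Differences from the gastrocnemius (24 libraries) and from the old soleus were contrasts of the same kind. The scripts were tested on simulated data with 200 changed genes. Alternatives were an equal-variance test and limma on the compared libraries, a pseudocount of 0.1, an FPKM minimum of 1 in 3 libraries, no quantile normalization, a replicate block and leaving out each library.

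Genes were named by rule: every gene at an adjusted p under 0.05 (0 genes), the 15 largest rises and 15 largest falls among non-overlapping genes with an unadjusted p under 0.05 and a mean FPKM of at least 1 in YE or YC (leaving out microRNA, snoRNA, Gm and Rik genes), up to 4 members of each list with the smallest p, and Nr1d1 and Pik3r1. Other genes named complete a list's count, are defining markers or were chosen after their values were seen. The comparison and the 43 gene lists were chosen with earlier results of these data known. Gene positions and promoter windows are RefSeq's for GRCm38.p6; 18758 gene IDs matched, and 25 symbols altered by a spreadsheet were restored. Some genes of the named lists are not reported here.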

Additional observations from a re-analysis of the deposited data

How the results depend on the processing

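The equal-variance test gave 33 DEGs in place of 68, adding 0.1 in place of 1 before log2 gave 317 (144 upregulated and 173 downregulated), and leaving out 1 library gave 48 to 122; 31, 65 and 34 to 48 of the 68 were DEGs in those fits, in the same order, and all 68 kept their direction. Upregulated genes were 44.1% of the DEGs, against 71.3% without YC replicate 2 and 28.7% without YC replicate 3. The 0 genes at an adjusted p under 0.05 became 1 with the FPKM minimum (Slc41a3), 1 without quantile normalization (Wwp1) and 4 to 20 without 1 library, of which 0 to 11 had a mean FPKM of at least 1. The difference from the gastrocnemius went from 0 to 1 gene with the equal-variance test and 0 to 5 without 1 library, and the difference from the old soleus to 1 with a pseudocount of 0.1 (Mir7682, below an FPKM of 1) and 0 to 4 without 1 library. Among named genes, Sdhd (0.00) ranged between -0.026 without YE replicate 2 and 0.025 without YE replicate 1, with -0.02 without YC replicate 1, and Hbb-b1 (-1.22) between -2.95 without YE replicate 4 and 0.42 without YE replicate 1. The cause of these shifts was not tested. YE and YC share only the numbers 1 and 2, which name different mice and do not pair: their deviations correlated at -0.08 and -0.30 across genes. With the replicate block there were 0 genes at an adjusted p under 0.05 and 60 DEGs (20 upregulated and 40 downregulated), 42 of them among the 68. Without read counts, the precision of low FPKM is unknown.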
